A study of Homo sapiens with 36 samples.

Results

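The genes TAP1, TAP2, TAPBP, TAPBPL, ERAP1, ERAP2, PSMB8, PSMB9 and PSMB10 prepare peptides for major histocompatibility complex (MHC) class I molecules. They were chosen by name, by looking up each symbol in the deposited table of gene counts, which holds all 9 among 26475 symbols. All 9 passed the filter on low counts in each experiment. Class I molecules carry short peptides of the cell's own proteins to the surface, where CD8 T cells inspect them. Proteasomes cut these peptides from proteins, the ABC transporter formed by TAP1 and TAP2 moves them into the endoplasmic reticulum, the aminopeptidases ERAP1 and ERAP2 trim them, and tapasin (TAPBP) and its relative TAPBPR (TAPBPL) help load them and edit the choice of peptide. PSMB8, PSMB9 and PSMB10 encode the catalytic subunits LMP7, LMP2 and MECL-1, which take the places of PSMB5, PSMB6 and PSMB7 in the immunoproteasome. Interferons, interferon gamma above all, are the known inducers of most of these genes.

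Poly-A selected RNA of 36 libraries from 3 human cancer cell lines was sequenced. The lines are MDA-MB-468, from a breast cancer of basal-like type, PANC-1, from a carcinoma of the pancreas, and WiDr, from a colorectal adenocarcinoma. In each line, cells with targeting hairpin 1 and cells with targeting hairpin 2 (short hairpin RNAs against the same gene) were set against cells with a non-silencing hairpin, and in WiDr a further experiment set cells with targeting guide RNA 1 and cells with targeting guide RNA 2 against cells with a non-targeting guide. The 12 groups held 3 libraries each, which the series' design calls biological replicates. No interferon or other agent is named for any group, and whether a group was a clone or a pool of cells is not given in the sources used here. In bulk RNA, fewer cells that express a gene and less of its RNA per cell cannot be told apart.

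Library totals lay between 28371127 and 49237322 expected counts. In WiDr the summed level of 7 colorectal epithelium markers was 641 to 1326 CPM (counts scaled to libraries of equal size), against 14.1 CPM at most in the other lines. Of these markers CDH17 and GPA33 passed a mean of 1 CPM in no WiDr group, and CDX1 only in some. CDX2 and LGALS4 passed it in PANC-1 as well. In MDA-MB-468 the sum of 7 basal keratin and receptor genes was 3861 to 6142 CPM. Of 8 leukocyte markers, CD14 and CD68 were the only ones whose mean passed 1 CPM in any group. The PANC-1 libraries labelled hairpin 2 differed from those of hairpin 1 in 0.106% of genes and are called by their label throughout. For 4 of the 6 targeting guide libraries the title and the genotype field name different guides. The titles were used, and the genotype field was run as an alternative. In several libraries the share of counts in transcripts under 1000 bases stood apart from the rest of the group, and values of this share are given beside results.

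The places of these genes and the bases at their starts are given first. TAP2, PSMB8, TAP1 and PSMB9 lie side by side within 37.8 kilobases of the MHC class II region (hg38, chr6:32821833-32859585), and TAPBP (chr6:33299694-33314387, minus strand) lies 440.1 kilobases away. ERAP1 (minus strand) and ERAP2 (plus strand) share a span of 158.9 kilobases (chr5:96760810-96919716). TAPBPL lies on chromosome 12 (chr12:6451690-6466517, plus strand) and PSMB10 on chromosome 16 (chr16:67934502-67937087, minus strand). TAP1 and PSMB9 are read in opposite directions from starts 488 bases apart, and the bases before both starts are printed because these genes had the largest falls of the 9 with WiDr hairpin 2, described below. In the lines that follow, each from RefSeq on GRCh38.p14 and read 5′ to 3′ on the gene's own strand, the last base of a line stands next to the annotated start, and capitals mark the core of the interferon-stimulated response element (ISRE).
TAP1, chr6:32853705-32853954, minus strand: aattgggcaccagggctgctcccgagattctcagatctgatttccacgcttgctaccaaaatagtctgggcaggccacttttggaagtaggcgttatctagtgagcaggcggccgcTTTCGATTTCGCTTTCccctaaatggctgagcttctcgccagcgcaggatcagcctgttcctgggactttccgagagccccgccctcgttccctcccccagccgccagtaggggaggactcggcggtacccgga
PSMB9, chr6:32853942-32854191, plus strand: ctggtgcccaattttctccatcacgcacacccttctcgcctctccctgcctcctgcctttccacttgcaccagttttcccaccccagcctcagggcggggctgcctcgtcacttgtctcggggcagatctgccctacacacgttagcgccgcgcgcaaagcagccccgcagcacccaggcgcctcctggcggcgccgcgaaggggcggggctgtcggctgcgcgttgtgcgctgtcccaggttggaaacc

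The ISRE core was searched on both strands as GAAA, any 2 bases and GAAA again, in the windows from 250 bases before to 50 bases after each annotated start. RefSeq gives 14 such windows for the 9 genes, all of which matched by symbol. The core was found in windows of 7 of the 9 genes, against 4.38% of the 27305 genes with a window, and was absent from the windows of PSMB9 and TAPBPL. TAP1 and TAPBP each held 2 overlapping cores. The stretches around these matches, with 10 bases on either side, are shown because their spacing to the start differs, from 134 bases before it in TAP1 to 2 bases after it in ERAP1. A core that reads TTTC, any 2 bases and TTTC stands on the opposite strand.
TAP1, chr6:32853813-32853848, minus strand: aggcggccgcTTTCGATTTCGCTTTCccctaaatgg
TAPBP, chr6:33314073-33314108, minus strand: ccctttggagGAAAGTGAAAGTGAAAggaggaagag
TAP2, chr6:32838778-32838807, minus strand: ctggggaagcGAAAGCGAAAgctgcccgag
PSMB8, chr6:32844032-32844061, minus strand: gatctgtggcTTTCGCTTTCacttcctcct
PSMB10, chr16:67936852-67936881, minus strand: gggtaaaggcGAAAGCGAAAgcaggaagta
ERAP1, chr5:96807924-96807953, minus strand: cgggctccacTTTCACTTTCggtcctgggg
ERAP2, chr5:96876460-96876489, plus strand: tcttagaacaGAAAGTGAAAgcaaaagtaa

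Read on the strand of the motif, TAP1, TAP2, PSMB8 and PSMB10 hold the core GAAAGCGAAA, and TAPBP, ERAP1 and ERAP2 hold GAAAGTGAAA. The other core of TAP1 is GAAATCGAAA, and both cores of TAPBP have the same letters. The interferon gamma-activated site, searched as TTCNNNGAA, was found on either strand in windows of TAP1 and PSMB8, against 9.38% of genes. The kappaB consensus, searched on both strands, was found in windows of TAP1, TAPBP, TAPBPL and ERAP1, against 13.3% of genes. No match of a motif overlapped a match of another motif. A match is a stretch of letters and not a measured site of binding, and the series holds no binding data.

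**Figure D1:**
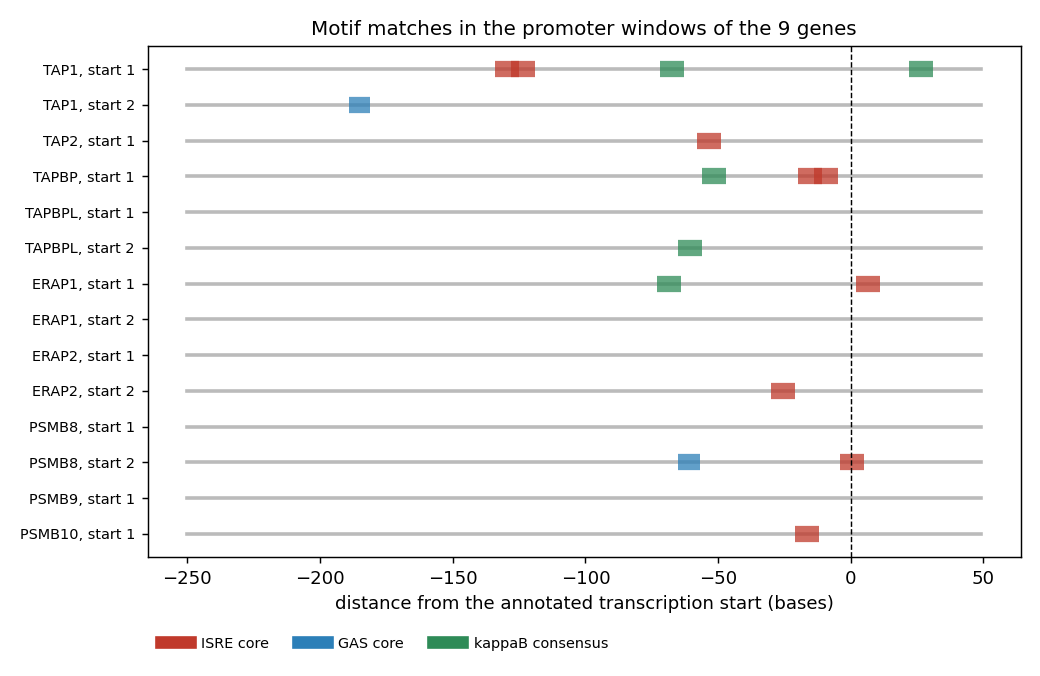
Position of motif matches in the 14 RefSeq promoter windows of the 9 genes, in bases from the annotated transcription start (dashed line at 0); grey lines are the windows and coloured blocks the matches. ISRE cores stand in 7 of the 9 genes, and the windows of PSMB9 hold no match.

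The controls of the 3 lines differed most in ERAP2, PSMB9 and TAP1. ERAP2 had 117, 105 and 117 CPM in WiDr controls, 25.6, 24.5 and 25.1 CPM in PANC-1 controls and 2.78, 3.22 and 2.68 CPM in MDA-MB-468 controls. The 3 lines did not overlap, and WiDr stood above MDA-MB-468 by 5.28 (SE 0.0890, edgeR adjusted p = 2.13e-28) on the log2 scale. PSMB9 was highest in PANC-1 controls, with 26.8, 43.3 and 45.7 CPM, against 12.9, 7.05 and 7.56 CPM in MDA-MB-468 controls and 5.35, 5.11 and 5.40 CPM in WiDr controls. TAP1 had 94.3, 96.2 and 97.2 CPM in PANC-1 controls, 52.7, 48.5 and 50.1 CPM in MDA-MB-468 controls and 21.4, 23.1 and 22.1 CPM in WiDr controls, and WiDr over PANC-1 gave -2.11 (SE 0.0746, edgeR adjusted p = 5.04e-21). Of the 3 lines WiDr had the most ERAP2 and the least TAP1 and PSMB9. In all, 7 of the 9 genes differed between PANC-1 and MDA-MB-468 controls, where 75.9% of all genes did, 6 between WiDr and MDA-MB-468 (77%) and 8 between WiDr and PANC-1 (77.7%), shares close to those of all genes. The calls of these controls moved with single libraries and with the processing. Without PANC-1 control replicate 1, PSMB8 no longer differed between PANC-1 and MDA-MB-468 (-0.17 in place of -0.43) and PSMB10 no longer between WiDr and PANC-1 (0.20 in place of 0.50). Without MDA-MB-468 control replicate 1 the PSMB8 value, also not called, was -0.26, and with an offset for transcript length and GC content the TAPBP value between PANC-1 and MDA-MB-468 was -0.03 in place of 0.38. Without either of these libraries PSMB10 was called higher in PANC-1 than in MDA-MB-468 (0.71 and 0.67). TAPBPL (-0.31 in WiDr over PANC-1) was called in 2 of 12 alternatives. It was lost with DESeq2 size factors, no filter on low counts, a replicate block, ribosomal RNA genes left out, the length and GC offset or the libraries of these experiments alone (-0.13 to -0.27), and without PANC-1 control replicate 2 (-0.13) or 3 (-0.23) or WiDr control replicate 1 (-0.30) or 3 (-0.35). PSMB10 was also lost without WiDr control replicate 2 (0.42) or 3 (0.43) and with the replicate block (0.54), and TAPBP (-0.32) with the offset (-0.04). ERAP1 was gained in WiDr over PANC-1 without PANC-1 control replicate 1 (0.38), and TAP2 in WiDr over MDA-MB-468 without MDA-MB-468 control replicate 1 (-0.16).

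Levels of different genes were compared per kilobase of annotated transcript. In WiDr hairpin controls TAPBP had the highest level of the 9, 81.9 ± 0.780 CPM per kilobase (SD, n = 3), ahead of ERAP2 with 34.99 ± 2.13. TAP2 stood at 16.2 ± 0.451, TAP1 at 10.4 ± 0.415 and PSMB9 at 6.72 ± 0.201 CPM per kilobase. In PANC-1 controls TAPBP again led with 102 ± 16.01 CPM per kilobase, and TAP1 (44.8 ± 0.692) stood above TAP2 (21.2 ± 0.959), the reverse of the order in WiDr. In MDA-MB-468 controls ERAP2 was the lowest, at 0.899 ± 0.0891 CPM per kilobase. Over the 12 groups the highest group mean exceeded the lowest 51.0-fold for PSMB9, 38.9-fold for ERAP2, 22.3-fold for TAP1 and 8.87-fold for PSMB8, and between 2.29-fold and 3.36-fold for the other 5. Ordered by level, neighbouring groups overlapped in 4 of 11 places for TAP1 and for ERAP2 and in 11 of 11 for TAPBPL, whose groups formed 1 continuous range.

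**Figure D2:**
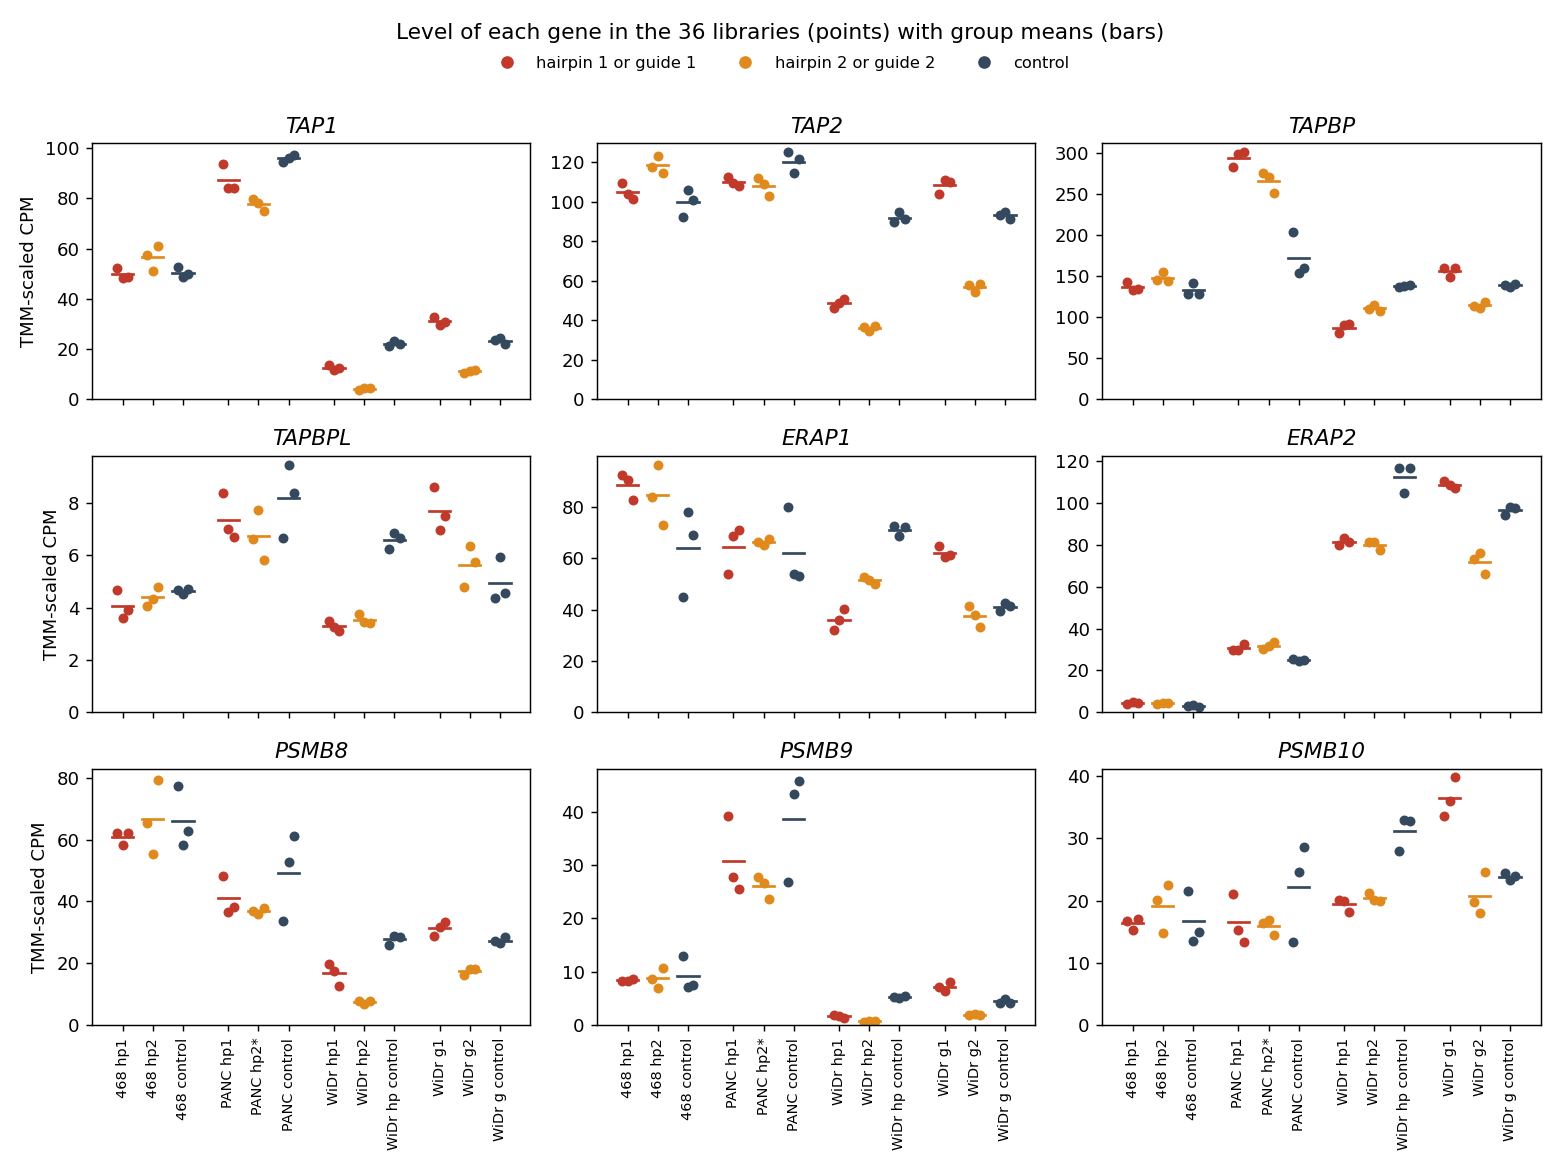
Level of each of the 9 genes in the 36 libraries, in TMM-scaled CPM on a linear axis from 0; points are libraries, bars are means of 3, hp is hairpin, g is guide, MDA-MB-468 is shortened to its digits and the asterisk marks the PANC-1 libraries labelled hairpin 2. With both WiDr hairpins every library of all 9 genes lies below the control libraries, and with guide 1 every library lies above them. Of all genes, 12.9% were called lower with both hairpins and 21.4% higher with guide 1. The share of all genes with no overlap of libraries was not computed.

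In WiDr all 9 genes fell with both hairpins. With hairpin 2 the 4 neighbours on chromosome 6, PSMB9, TAP1, PSMB8 and TAP2, had the largest falls of the 9, and with hairpin 1 PSMB9, TAPBPL and ERAP1 had. PSMB9, the immunoproteasome subunit that replaces PSMB6, had 1.91, 1.74 and 1.35 CPM with hairpin 1 and 0.670, 0.856 and 0.744 CPM with hairpin 2, against 5.35, 5.11 and 5.40 CPM in controls. These levels rest on 52, 53 and 52 expected counts with hairpin 1 and 20, 40 and 20 with hairpin 2, against 166, 173 and 166 in controls. The 3 groups did not overlap, and the log2 fold changes were -1.67 (SE 0.166, edgeR adjusted p = 7.64e-07) and -2.79 (SE 0.183, edgeR adjusted p = 8.48e-09). TAP1 had 13.6, 11.6 and 12.5 CPM with hairpin 1 and 3.82, 4.52 and 4.58 CPM with hairpin 2, against 21.4, 23.1 and 22.1 CPM in controls. It therefore fell to 0.567 of the control level with hairpin 1 and to 0.193 of it with hairpin 2, log2 fold changes of -0.82 (SE 0.0836, edgeR adjusted p = 1.01e-06) and -2.37 (SE 0.0942, edgeR adjusted p = 1.4e-11). The other transporter chain, TAP2, had 46.3, 48.8 and 50.9 CPM and 36.6, 34.5 and 37.2 CPM with hairpins 1 and 2, against 90.01, 94.9 and 91.2 CPM in controls. Every TAP2 library with a hairpin lay below the controls, and the log2 fold changes were -0.91 (SE 0.0549) and -1.36 (SE 0.0559).

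PSMB8, the counterpart of PSMB5, had 19.9, 17.6 and 12.6 CPM with hairpin 1 and 7.78, 6.98 and 7.77 CPM with hairpin 2, against 26.05, 28.7 and 28.6 CPM in controls, log2 fold changes of -0.74 (SE 0.134) and -1.91 (SE 0.145). The order of the 3 hairpin 1 libraries in PSMB8 was also their order in the share of short transcripts, which was 16.7%, 14.4% and 13.5%, and the part of that share in the spread was not tested. PSMB10, the counterpart of PSMB7, lies outside the cluster and fell with both hairpins, with log2 fold changes of -0.68 (SE 0.0782) and -0.63 (SE 0.0777). The aminopeptidase ERAP1 fell to 32.2, 35.8 and 40.2 CPM with hairpin 1 and 52.8, 51.7 and 49.9 CPM with hairpin 2, against 72.8, 68.8 and 72.1 CPM in controls. Its partner ERAP2 had the log2 fold changes -0.46 (SE 0.0529) and -0.50 (SE 0.0528). Tapasin showed the smallest fall with hairpin 2, -0.32 (SE 0.0503), and -0.65 (SE 0.0508) with hairpin 1, while its relative TAPBPL changed by -1.003 (SE 0.119) and -0.91 (SE 0.118).

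Adjusted p-values of the 9 genes lay between 3.12e-09 and 0.000658 with hairpin 1 and between 1.4e-11 and 8.31e-05 with hairpin 2 (edgeR quasi-likelihood test, Benjamini-Hochberg over 14317 genes). Of all genes tested, 48% changed with hairpin 1 (23.9% downward) and 44.7% with hairpin 2 (22.5% downward), and 12.9% were lower with both, against 9 of these 9. The median log2 fold change of the 9 was -0.82 and -0.91, against 0.00 and -0.01 over all genes. The share of counts in ribosomal RNA genes was 1.27% to 2.56% with hairpin 1 and 5.38% to 10.2% with hairpin 2, against 1.59% to 2.71% in controls, and with those genes left out 9 of 9 were again lower with each hairpin. Summed over the 9 genes the level was 298 to 312 CPM with hairpin 1 and 308 to 319 CPM with hairpin 2, against 503 to 515 CPM in controls. The ranges of the hairpins overlapped in this sum, below every control library. The share of transcripts under 1000 bases was 12.3% to 12.8% with hairpin 2, against 13.6% to 14.6% in controls, and with the offset for transcript length and GC content 9 of 9 were again lower with hairpin 2.

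The hairpins differed in the 4 clustered genes and in the opposite direction in 2 others. Hairpin 2 over hairpin 1 gave -1.55 (SE 0.0977, edgeR adjusted p = 7.96e-09) for TAP1, -1.17 (SE 0.149) for PSMB8, -1.12 (SE 0.201) for PSMB9 and -0.45 (SE 0.0566) for TAP2 on the log2 scale. TAPBP and ERAP1 were higher with hairpin 2 than with hairpin 1, by 0.33 (SE 0.0509) and 0.49 (SE 0.0655). For TAPBPL, ERAP2 and PSMB10 the values were 0.09 (SE 0.125), -0.04 (SE 0.0532) and 0.05 (SE 0.0800), and none of these 3 was called. The 6 called genes had adjusted p-values from 7.96e-09 to 0.000405 (edgeR quasi-likelihood test, Benjamini-Hochberg), where 42.4% of all genes were called, 21.8% lower and 20.6% higher. Both comparisons with the control share the control libraries, so this direct comparison is the test of the difference.

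**Figure D3:**
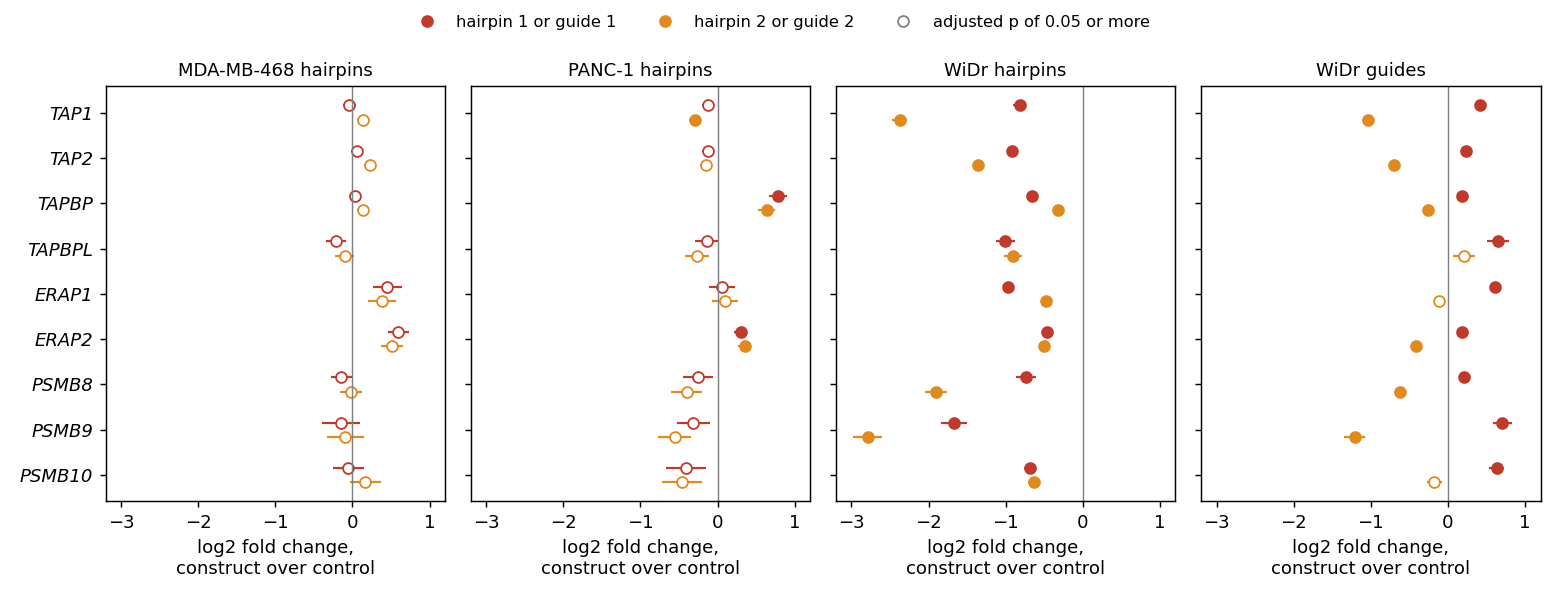
Log2 fold change of each gene with construct 1 (red) and construct 2 (orange) over the control of the same experiment; error bars are SE, filled points have an adjusted p under 0.05 (edgeR). In WiDr all 9 genes are lower with both hairpins, from -0.32 to -2.79, and the guides lie on opposite sides of 0 for most genes.

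The guide experiment in WiDr gave opposite directions. With guide 1 all 9 genes rose, by 0.18 to 0.71 on the log2 scale, and with guide 2, 6 fell, TAP1, TAP2, TAPBP, ERAP2, PSMB8 and PSMB9. With all 36 libraries in 1 fit 6 of the rises were called, and those of ERAP2, PSMB8 and TAPBP (0.17, 0.20 and 0.17) were lost. TAP1 had 32.7, 29.5 and 30.7 CPM with guide 1 and 10.4, 11.4 and 11.8 CPM with guide 2, against 23.7, 24.4 and 22.02 CPM with the non-targeting guide. Guide 1 libraries stood above and guide 2 libraries below every control library, with log2 fold changes of 0.42 (SE 0.0706, edgeR adjusted p = 0.000151) and -1.04 (SE 0.0762, edgeR adjusted p = 5.56e-08). PSMB9 had 7.10, 6.38 and 8.01 CPM with guide 1 and 1.83, 2.01 and 1.82 CPM with guide 2, against 4.12, 4.96 and 4.23 CPM in controls, log2 fold changes of 0.71 (SE 0.122, edgeR adjusted p = 0.000186) and -1.21 (SE 0.139, edgeR adjusted p = 9.75e-06). TAP2 had 104, 111 and 109.9 CPM and 57.7, 54.3 and 58.4 CPM with guides 1 and 2, against 93.3, 94.9 and 91.4 CPM in controls. TAP1, TAP2 and PSMB9 were thus each split by guide with no overlap between any of the 3 groups, and so were TAPBP, ERAP2 and PSMB8. All 6 were called higher with guide 1 and lower with guide 2, where 0.765% of all genes were. The share of all genes with no overlap of libraries was not computed.

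Among the genes with smaller shifts, PSMB8 changed by 0.21 (SE 0.0695) with guide 1 and -0.62 (SE 0.0725) with guide 2, TAPBP by 0.18 (SE 0.0480) and -0.26 (SE 0.0484), and ERAP2 by 0.19 (SE 0.0542) and -0.41 (SE 0.0550). The rises were larger for ERAP1, which had 64.9, 60.4 and 61.5 CPM with guide 1 and 41.5, 37.98 and 33.3 CPM with guide 2, against 39.6, 42.5 and 41.4 CPM in controls. ERAP1 rose by 0.61 with guide 1 and gave -0.11 (SE 0.0707, edgeR adjusted p = 0.260) with guide 2. PSMB10 rose by 0.63 and TAPBPL by 0.65 with guide 1, and their values with guide 2 were -0.18 (SE 0.0969, edgeR adjusted p = 0.201) and 0.21 (SE 0.141, edgeR adjusted p = 0.301). These 3 genes were not called with guide 2, and PSMB10 passed (-0.33, adjusted p = 0.00359) once guide 2 replicate 3 was left out. Of all genes 41.6% changed with guide 1, 21.4% upward, and 25.5% with guide 2, 11.3% downward (edgeR quasi-likelihood test, Benjamini-Hochberg over 14649 genes). The rise of PSMB8 with guide 1 was lost without control replicate 1 or 2 or guide 1 replicate 2 or 3 (0.17 to 0.21), and that of ERAP2 without control replicate 1 (0.17).

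Set against each other, guide 2 was lower than guide 1 in all 9 genes, from -0.44 for TAPBPL to -1.92 for PSMB9, where 34.4% of all genes differed and 17.1% were lower. TAP1 followed with -1.46 (SE 0.0748, edgeR adjusted p = 2.45e-10) and TAP2 with -0.93 (SE 0.0503, edgeR adjusted p = 4.44e-10). TAPBPL, the least changed, was lost without replicate 1 of guide 1 (-0.35) or of guide 2 (-0.34). Summed over the 9 genes the level was 540.1 to 558 CPM with guide 1 and 335 to 339 CPM with guide 2, against 450.0 to 458 CPM in controls. The colorectal marker sum also differed between the guides, with 1027 to 1140.3 CPM for guide 1 and 862 to 875 CPM for guide 2, against 641 to 669 CPM in controls. Its members went both ways. Guide 2 over guide 1 gave -0.95 for KRT20, but 0.74 for VIL1 and 0.88 for CDX1. CDX2, CDH17 and LGALS4 were not called. The part of these markers in the results was not tested. Grouped by the genotype field, which puts 5 libraries under guide 1 and 1 under guide 2, TAP1 gave -0.27 for guide 1 and 0.41 for guide 2. These signs are the reverse of those by title. With 1 library under guide 2, which would be assumed to vary like those of the other groups, calls of this grouping are not given. The guide calls hold for the grouping by titles only. Every direction given for a guide rests on the titles.

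**Figure D4:**
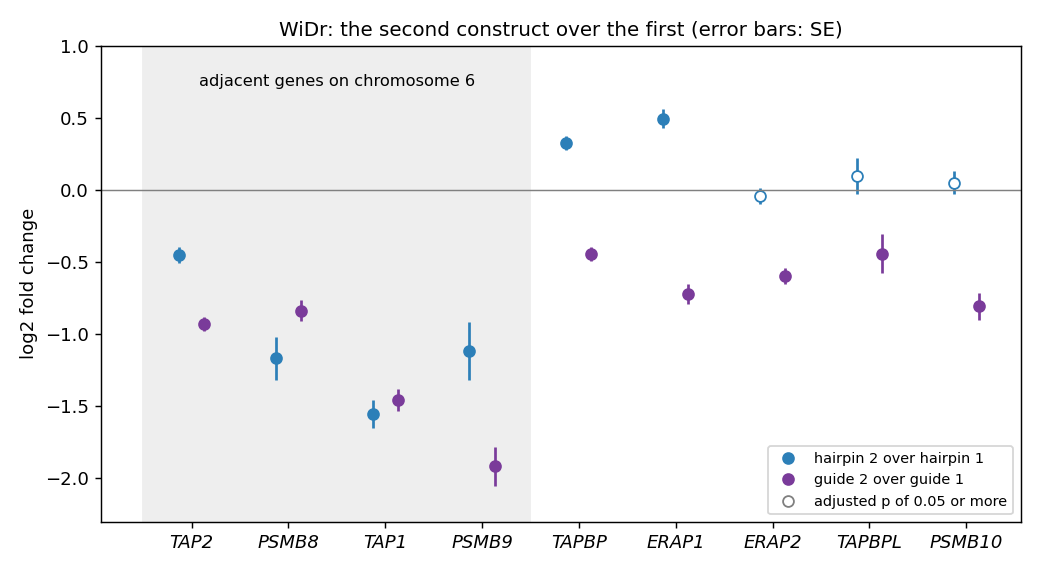
Log2 fold change of hairpin 2 over hairpin 1 (blue) and of guide 2 over guide 1 (purple) in WiDr for each gene, with SE; the grey band holds the 4 adjacent genes on chromosome 6 and open points were not called. All 4 clustered genes are lower with construct 2 in both experiments, while TAPBP and ERAP1 are higher with hairpin 2 and lower with guide 2.

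Between the WiDr controls, those with the non-targeting guide had less ERAP1 than those with the non-silencing hairpin, -0.79 (SE 0.149, edgeR adjusted p = 0.000104) on the log2 scale. TAPBPL (-0.41) and ERAP2 (-0.22) were also called lower, where 34.8% of all genes differed and 15.7% were lower. Both calls were lost without replicate 3 of the hairpin controls (-0.41 and -0.20) or replicate 1 of the guide controls (-0.32 and -0.20). TAPBPL was also lost without hairpin control replicate 2 (-0.38) or guide control replicate 3 (-0.36), and ERAP2 without hairpin control replicate 1 (-0.20). TAP1, TAP2, TAPBP and PSMB8 differed by 0.07, 0.02, 0.01 and -0.02 and were not called. PSMB9 and PSMB10 were not called either. PSMB9 had 4.12 to 4.96 CPM in guide controls against 5.11 to 5.40 CPM in hairpin controls. PSMB10 had 23.2 to 24.3 against 27.9 to 33.0 CPM and was called in 2 of 12 alternatives (-0.46 to -0.34 over all of them). The colorectal marker sum was 641 to 669 CPM in guide controls and 1185 to 1230 CPM in hairpin controls, and its part was not tested.

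The RNA balance of inducible and constitutive subunits was followed as the inducible member's share of each pair, per kilobase of transcript. Subunit proteins in assembled proteasomes were not measured. For PSMB9 and PSMB6 in WiDr, PSMB9 made up 3.35% ± 0.293 with hairpin 1 and 1.79% ± 0.221 with hairpin 2, against 11.2% ± 0.838 in controls (SD, n = 3 each). With the guides it was 14.03% ± 1.29 for guide 1 and 4.21% ± 0.435 for guide 2, against 10.00% ± 1.08 in controls. Each of these 4 shares lay apart from its control libraries. The PSMB8 share of PSMB8 and PSMB5 was 17.3% ± 2.08 with hairpin 1 and 9.96% ± 0.619 with hairpin 2, against 28.6% ± 0.194 in controls. With guide 1 it was 30.5% ± 0.284 and with guide 2 18.97% ± 0.544, against 28.2% ± 1.12 in controls. The PSMB10 share of PSMB10 and PSMB7 separated the hairpins less, at 10.5% ± 0.217 and 10.6% ± 0.232 for hairpins 1 and 2, against 19.03% ± 0.782 in controls.

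Of the constitutive subunits none was called lower with a WiDr hairpin. PSMB5 changed by 0.20 (SE 0.0781) and -0.04 (SE 0.0784) with WiDr hairpins 1 and 2 and PSMB6 by 0.20 (SE 0.0886) and -0.03 (SE 0.0889), and these 4 values were not called. PSMB7 rose with both hairpins (0.33 and 0.36) and with both guides (0.24 and 0.21). In PANC-1 the PSMB8 share was 25.5% ± 0.798 for hairpin 1 and 26.2% ± 1.60 for the libraries labelled hairpin 2, against 23.9% ± 0.839 in controls, and every hairpin library lay above the controls. The PSMB9 share overlapped the controls with every hairpin of PANC-1 and MDA-MB-468. In PANC-1 PSMB9 made up 24.8% ± 0.790 of its pair for hairpin 1 and 24.8% ± 0.369 for the libraries labelled hairpin 2, against 23.8% ± 0.640 in controls. PSMB6 was called lower in the libraries labelled hairpin 2 (-0.65, edgeR adjusted p = 0.0480), with 80.0 to 90.3 CPM against 90.4 to 164 CPM in controls. PSMB5 (-0.58, edgeR adjusted p = 0.0581) and PSMB7 (-0.48, edgeR adjusted p = 0.0784) had values near it and were not called. In MDA-MB-468 PSMB9 made up 9.68% ± 0.408 and 9.14% ± 0.196 with hairpins 1 and 2, against 9.91% ± 1.31 in controls. PSMB11, the subunit of thymic cortical epithelium, reached at most 0.139 CPM in any library.

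**Figure D5:**
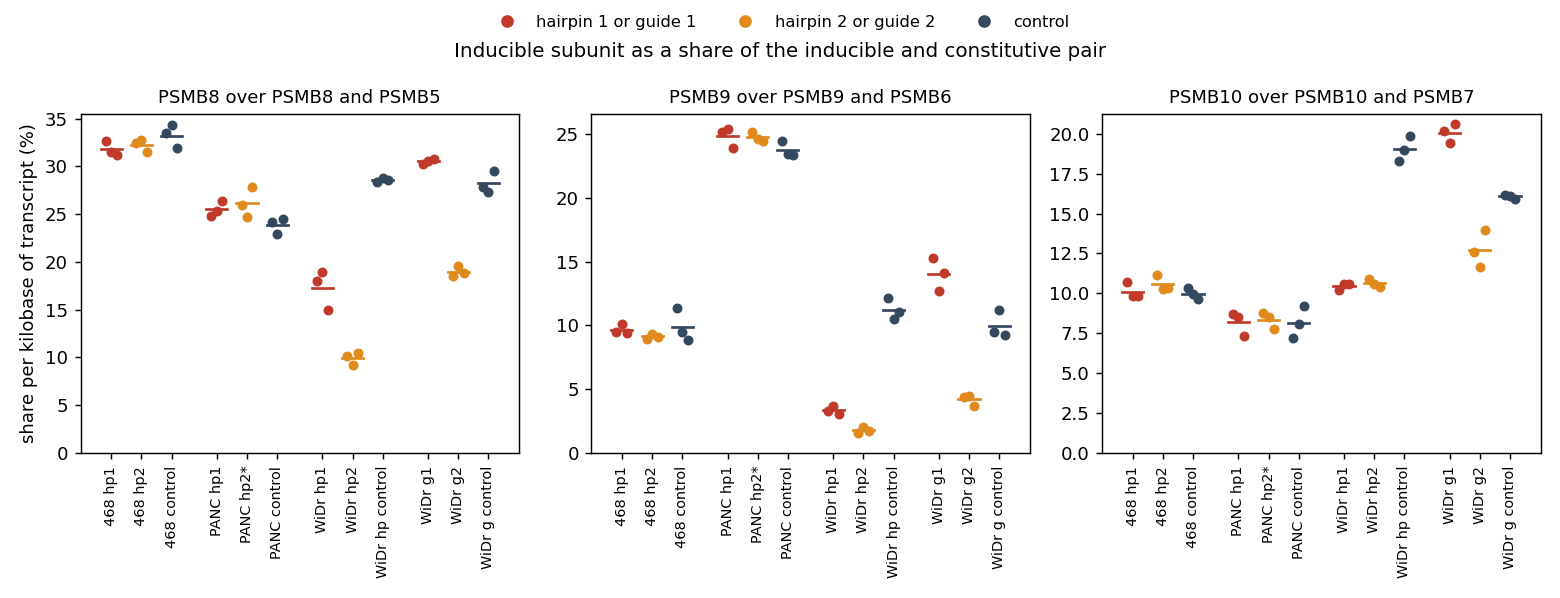
Inducible subunit as a percentage of the inducible and constitutive pair, per kilobase of annotated transcript, in each of the 36 libraries (points) with group means (bars); labels as in the plot of levels by library. PSMB8 and PSMB9 take their lowest shares with WiDr hairpin 2, 9.96% and 1.79%, and PSMB9 its highest in PANC-1.

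In PANC-1 the loading factor tapasin and the aminopeptidase ERAP2 rose, and none of the transporter and immunoproteasome genes did. TAPBP had 283, 298 and 301 CPM for hairpin 1 and 276, 271 and 251 CPM for the libraries labelled hairpin 2, against 203, 153 and 161 CPM in controls. All 6 hairpin libraries stood above the controls, and the log2 fold changes were 0.78 (SE 0.114, edgeR adjusted p = 0.00104) and 0.63 (SE 0.114, edgeR adjusted p = 0.00303). ERAP2 had 29.6, 29.6 and 32.6 CPM for hairpin 1 and 30.01, 31.8 and 33.7 CPM for the libraries labelled hairpin 2, against 25.6, 24.5 and 25.1 CPM in controls. These groups did not overlap either, with log2 fold changes of 0.30 (SE 0.0819, edgeR adjusted p = 0.0227) and 0.35 (SE 0.0819, edgeR adjusted p = 0.0103). TAP1 had 93.6, 83.9 and 83.9 CPM for hairpin 1 and 79.6, 78.1 and 75.1 CPM for the libraries labelled hairpin 2, against 94.3, 96.2 and 97.2 CPM in controls, and fell in the libraries labelled hairpin 2, with a log2 fold change of -0.30 (SE 0.0755, edgeR adjusted p = 0.0155). Thus 2 of the 9 genes were called with hairpin 1, where 30.2% of all genes were (16.2% upward), and 3 in the libraries labelled hairpin 2, where 33.4% were (16.7% in each direction). Between these hairpin groups 0 of the 9 were called (edgeR; 0 at an unadjusted p under 0.05, and 0 with DESeq2), where 0.106% of genes were.

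PSMB8, PSMB9 and PSMB10 had negative values in PANC-1 that were not called, and these calls depended on control replicate 1. PSMB8 had 48.4, 36.4 and 38.3 CPM for hairpin 1 and 36.99, 35.8 and 37.97 CPM for the libraries labelled hairpin 2, against 33.6, 52.6 and 61.1 CPM in controls 1, 2 and 3. The share of transcripts under 1000 bases in these libraries was 15.2%, 11.5% and 11.4% for hairpin 1 and 11.4% to 12.03% for the libraries labelled hairpin 2, against 9.94%, 15.4% and 15.9% in controls. PSMB9, whose annotated transcripts have a median length of 787 bases, was likewise lowest in control replicate 1 among controls and highest in replicate 1 of hairpin 1 among hairpin libraries, and the part of this share in the values was not tested. Without control replicate 1, 5 of the 9 genes were called with hairpin 1 (2 up, 3 down), where 6797 of 15346 genes were. In the libraries labelled hairpin 2, 8 of the 9 then were (3 up, 5 down), where 7958 of 15346 genes were. PSMB9 stood at -0.53 and -0.78 without that control library, against -0.31 and -0.56 with it. ERAP2 with hairpin 1 was lost when control replicate 2 or 3, hairpin 1 replicate 2 or 3 or labelled hairpin 2 replicate 2 was left out (0.24 to 0.31). TAP1 was lost without replicate 2 (-0.31) or 3 (-0.28) of the libraries labelled hairpin 2, and also with no filter on low counts or with the replicate block. The ribosomal RNA share was 0.838% to 2.60% for hairpin 1 and 1.22% to 1.80% for the libraries labelled hairpin 2, against 4.61% to 9.603% in controls, and without these genes 2 and 3 of the 9 were called as before. The summed leukocyte list was also higher with the hairpins, at 138 to 149 and 175 to 186 CPM against 76.8 to 85.5 CPM in controls, with CD14 and CD68 as its 2 members over 1 CPM. The fibroblast list, with COL1A1 and PDGFRB over 1 CPM, was at 40.0 to 47.6 CPM for hairpin 1 and 17.9 to 21.1 CPM for the libraries labelled hairpin 2, against 10.6 to 21.3 CPM in controls. The part of either list in the results was not tested.

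In MDA-MB-468 none of the 9 genes was called with either hairpin. ERAP2 came closest, with 4.02, 4.94 and 4.37 CPM with hairpin 1 and 3.75, 4.23 and 4.63 CPM with hairpin 2, against 2.78, 3.22 and 2.68 CPM in controls. All 6 hairpin libraries lay above the controls, and the log2 values were 0.60 (SE 0.138, edgeR adjusted p = 0.0676) and 0.52 (SE 0.138, edgeR adjusted p = 0.0873). ERAP1 had 92.5, 90.7 and 82.8 CPM with hairpin 1 and 84.1, 96.7 and 72.97 CPM with hairpin 2, against 45.01, 78.3 and 69.2 CPM in controls. Control replicate 1, the lowest ERAP1 library, also had the largest share of short transcripts, 15.8% against 11.02% and 12.5% in controls 2 and 3, and the part of that share was not tested. TAP1 (-0.04 and 0.14), TAP2 (0.05 and 0.23) and PSMB9 (-0.15 and -0.09) had small values with either hairpin. The count was 0 of 9 with each hairpin by edgeR, with 2 genes at an unadjusted p under 0.05 for each, and 1 and 0 with DESeq2, while 2.27% and 3.49% of all genes were called. Between the hairpins 0 of 9 were called by edgeR (1 at an unadjusted p under 0.05, 0 with DESeq2), where 0.437% of genes were.

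Whether the lines responded differently was tested as a difference of effects, each effect being a hairpin against its own control. The WiDr effect was lower than the MDA-MB-468 effect for 7 of the 9 genes with hairpin 1, all but PSMB8 and PSMB10, and for 9 of 9 with hairpin 2, where 15.8% and 15.9% of all genes differed and 9.17% and 9.06% were lower. The difference was -2.72 for PSMB9 and -2.53 for TAP1 with hairpin 2. It was lower than the PANC-1 effect for 7 and 8 of the 9, where 36.7% and 30.1% of all genes differed and 19% and 14.4% were lower. The PANC-1 and MDA-MB-468 effects differed for TAPBP (0.72) and ERAP2 (-0.33) with hairpin 1 and for TAPBP (0.47), TAP1 (-0.47) and TAP2 (-0.40) with hairpin 2, where 25.3% and 29.8% of all genes did. With the offset for transcript length and GC content neither TAPBP difference was called (0.38 and 0.31, edgeR adjusted p = 0.0626 and 0.129). Within WiDr, the mean effect of the guides was higher than the mean effect of the hairpins for all 9 genes, by 0.35 to 1.96 on the log2 scale, where 19.9% of all genes differed and 10.7% were higher. With that offset TAPBP was also lost between guides and hairpins (0.34) and between WiDr and MDA-MB-468 with hairpin 2 (-0.38). Some of these calls rested on single libraries. ERAP2 between PANC-1 and MDA-MB-468 with hairpin 1 was lost without MDA-MB-468 control replicate 1 or 3, MDA-MB-468 hairpin 1 replicate 2 or 3, PANC-1 control replicate 2 or 3 or PANC-1 hairpin 1 replicate 1 or 2 (-0.25 to -0.34). Without PANC-1 control replicate 1 PSMB10 was called as well with hairpin 1 (-0.67), and PSMB8 (-0.67), PSMB9 (-0.75) and PSMB10 (-0.97) with hairpin 2. Without MDA-MB-468 control replicate 1 the hairpin 2 effects also differed for PSMB9 (-0.87) and PSMB10 (-0.93), PSMB10 also without MDA-MB-468 hairpin 2 replicate 2 (-0.83), and without MDA-MB-468 control replicate 2 the hairpin 1 effects differed for ERAP1 (-0.59) and TAP2 (-0.25), TAP2 also without MDA-MB-468 control replicate 3 (-0.24). Between WiDr and PANC-1 with hairpin 2, ERAP1 was lost without any of the 12 libraries except PANC-1 control replicate 1 (-0.50 to -0.59), and TAPBPL without that library, WiDr control replicate 2 or replicate 2 of either hairpin 2 group (-0.46 to -0.57). Between WiDr and MDA-MB-468 with hairpin 2, PSMB10 was lost without MDA-MB-468 control replicate 2 or 3, MDA-MB-468 hairpin 2 replicate 1 or 3, WiDr control replicate 2 or 3 or any WiDr hairpin 2 library (-0.68 to -0.85). With hairpin 1, PSMB8 was gained against MDA-MB-468 without MDA-MB-468 control replicate 1 (-0.74) or WiDr hairpin 1 replicate 1 (-0.76), PSMB10 without that control (-0.87), and PSMB8 against PANC-1 without PANC-1 control replicate 3 (-0.70). Hairpin and guide numbers name different constructs, and the mean of guides 1 and 2 joins effects of opposite sign (edgeR quasi-likelihood test on all 36 libraries, Benjamini-Hochberg over 17170 genes).

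Class I molecules, which receive the peptides, fell in WiDr as well. Of 8 class I genes (heavy chains, the light chain B2M and the transactivator NLRC5), 7 were tested and all 7 fell with both hairpins, as 12.9% of all genes did. HLA-B changed by -2.19 and -2.97 with hairpins 1 and 2, B2M by -0.71 and -1.22. With the guides B2M, HLA-B and HLA-C, 3 of the 7, rose with guide 1 and fell with guide 2, where 0.765% of all genes did, HLA-B at 0.50 and -1.19. NLRC5, the transactivator of class I promoters and of TAP1 and PSMB9, was singled out after its values were seen. It fell with hairpins 1 and 2 (-0.60 and -1.39) and with guide 2 (-1.91), and was not called with guide 1 (-0.04). In PANC-1 and MDA-MB-468, 0 of the 7 changed in the same direction with both hairpins, where 23.8% and 1.31% of all genes did. Reads of the class I heavy chains can be divided among close relatives, so their values are uncertain.

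Of 11 tested chaperones and other peptidases of the pathway, 4 fell with both WiDr hairpins and 1 rose with both, where 12.9% and 12.3% of all genes did. Calreticulin (CALR), the chaperone of the loading complex, changed by -0.80 and -0.60, and its partner PDIA3 (ERp57) by -0.57 and -0.56. The cytosolic peptidase TPP2 rose by 0.44 and 0.35. In PANC-1, the cytosolic peptidases LAP3 (-0.55 and -0.57) and BLMH (-0.44 and -0.42) fell, 2 of 11, where 11.1% of all genes did. LAP3 also changed in WiDr, by -0.41 and -0.76. With the guides, HSPA5 (BiP), a general chaperone of the endoplasmic reticulum, rose with both, as 8.48% of all genes did, by 1.00 and 0.20.

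Of 5 tested proteasome activators and assembly factors, 2 fell with both WiDr hairpins, where 12.9% of all genes did. They were PSME1 and PSME2, which make up the activator PA28. PSME2 changed by -0.90 and -1.46, and PSME1 by -0.45 and -0.90. With guide 1 both rose (0.59 and 0.33), and with guide 2 neither was called (-0.02 and 0.06). POMP, the assembly factor of the proteasome, rose with both guides (0.25 and 0.19), 1 of 5, where 8.48% of all genes did. PSME3, the nuclear activator, fell with both PANC-1 hairpin groups (-0.60 and -0.49), 1 of 5, where 11.1% of all genes did.

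Of 10 tested transcription regulators of class I and interferon responses, 3 fell with both WiDr hairpins, where 12.9% of all genes did. IRF9, a DNA-binding factor of interferon responses, changed by -0.29 with hairpin 1 and -1.38 with hairpin 2, and its partner STAT2 by -0.25 and -0.44. The other was IRF1 (-0.30 and -0.18). Directly compared, hairpin 2 lay below hairpin 1 for IRF9 (-1.09), and STAT2 (-0.20, edgeR adjusted p = 0.0533) was not called. RFXANK, a subunit of the RFX complex of MHC promoters, rose with both (0.46 and 0.23). With the guides, STAT2 fell with guide 1 (-0.16) and guide 2 (-0.53), 1 of 10, where 6.26% of all genes did. IRF9 was not called with guide 1 (0.12) and fell with guide 2 (-0.44). IRF1, an activator of TAP1 and PSMB9 transcription that was singled out here after its values were seen, rose with guide 1 (0.91) and was not called with guide 2 (0.02). In PANC-1, IRF9 (0.81 and 0.65), IRF1 (0.63 and 0.34) and IRF2 (0.25 and 0.44) rose and RFX5 fell (-0.25 and -0.35), where 12.7% of all genes rose and 11.1% fell with both, and in MDA-MB-468 none of these regulators changed with both hairpins. Each call here is by edgeR at an adjusted p under 0.05 over all genes tested.

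The genes whose levels ran most like each of the 9 were found by Pearson correlation of log2 CPM over the 36 libraries, centred within each experiment, among 11546 genes with a mean of at least 5 CPM. The libraries of a group share their construct, so the correlations are given as descriptions. TAP1 ran most like PARP12 (r = 0.98), IFI27 (0.96) and IFIT5 (0.96), all known as interferon-stimulated genes, and PSMB8 like ISG15 (0.97), IFI6 and IFITM3 (0.93 each). PSMB9 ran most like HLA-B (0.96), HLA-C (0.93) and PSMB8 (0.92), and TAP2 like PARP12, TAP1 and HLA-B (0.93 each). The other 5 genes had other neighbours. PSMB10 ran most like SSR4 (0.92), TMED9 and MYDGF (0.91 each), genes of the secretory pathway, and TAPBPL like NXPH4, RPN2 and PDIA3 (0.86, 0.85 and 0.85). TAPBP ran most like SH3BP2, ECE1 and PADI2 (0.93 each), ERAP1 like ITGB6 (0.92), STS (0.91) and UBFD1 (0.89), and ERAP2 like LAMP3 (0.84), CAB39L (0.83) and IRS2 (0.81). Among the 9 themselves, all 36 pairs correlated positively in each WiDr experiment, with a median r of 0.85 in both, over 9 libraries each. In MDA-MB-468 21 of 36 pairs were positive (median 0.18) and in PANC-1 18 of 36 (median 0.12).

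Several of these genes overlap others, and the strand setting of the counting is not given in the sources used here. On GENCODE 29, PSMB9 overlaps TAP1 by 8770 bases and PSMB8 by 568 bases on the opposite strand, TAP1 and PSMB8 overlap the antisense gene PSMB8-AS1, ERAP1 overlaps CAST by 18786 bases and TAPBPL overlaps VAMP1 by 4281 bases. These overlaps are of whole gene spans, introns included, and the overlap of exons was not computed. The span of PSMB9 (chr6:32844136-32859585) begins before the RefSeq start used above and holds all of TAP1. Where exons overlap, reads cannot be told apart without strand, so the division of counts among TAP1, PSMB9 and PSMB8 is uncertain.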

How the data were processed

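Libraries were made from poly-A RNA, per the labels' protocols. Per the submitters' processing notes, reads were handled with Bowtie2 2.1.0 and RSEM 1.2.15 on hg38, and the deposited table holds expected counts per gene symbol, in which 26475 symbols are listed once. Neither the annotation nor the strand setting is given in the sources used here. The expected counts were rounded to whole numbers and were tested with edgeR 4.0.16 (limma 3.58.1, R 4.3.3): filterByExpr by group, TMM scaling, a robust quasi-likelihood fit and Benjamini-Hochberg adjustment over all genes tested, with a call at an adjusted p under 0.05. Each experiment was fitted on its own 9 libraries, and comparisons across experiments on all 36. Fold changes are log2, the group named first over the other. DESeq2 1.42.0, other scaling, no filter, a replicate block, the genotype field, ribosomal RNA genes left out and each library left out were alternatives. The statistics were tested on simulated data.

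Levels are TMM-scaled CPM, and levels per kilobase use the median transcript length on GENCODE 29, which 23899 of the 26475 symbols (90.3%) have. Promoter windows are from RefSeq on GRCh38.p14. Libraries of a group differed by more than counting error (chi-square per degree of freedom 3.39 to 177), and p-values measure the spread between libraries said to be biological replicates, since nothing else gives their origin. Of the lists, at most 4 genes per list and experiment are named by rule, those called with both constructs in 1 direction with the largest smaller change. The members and lists were chosen with earlier results of these data known. Values of the gene that the constructs target and of another listed gene are not reported here.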

Additional observations from a re-analysis of the deposited data

Results flagged for a closer look

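Every difference between 2 effects that the edgeR quasi-likelihood test called at an adjusted p under 0.05 was singled out. Each value is the difference of 2 log2 fold changes, the effect named first minus the effect named after it, and each effect is a construct over its own control.

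In WiDr minus MDA-MB-468 the differences were negative throughout. With hairpin 1 they were -0.81 for TAP1, -0.99 for TAP2, -0.71 for TAPBP, -0.82 for TAPBPL, -1.45 for ERAP1, -1.08 for ERAP2 and -1.56 for PSMB9. With hairpin 2 they were -2.53 for TAP1, -1.60 for TAP2, -0.48 for TAPBP, -0.82 for TAPBPL, -0.87 for ERAP1, -1.03 for ERAP2, -1.90 for PSMB8, -2.72 for PSMB9 and -0.81 for PSMB10. In WiDr minus PANC-1 they were also negative. With hairpin 1 they were -0.69 for TAP1, -0.79 for TAP2, -1.43 for TAPBP, -0.86 for TAPBPL, -1.03 for ERAP1, -0.76 for ERAP2 and -1.36 for PSMB9. With hairpin 2, labelled so in PANC-1, they were -2.06 for TAP1, -1.19 for TAP2, -0.94 for TAPBP, -0.62 for TAPBPL, -0.56 for ERAP1, -0.84 for ERAP2, -1.48 for PSMB8 and -2.21 for PSMB9.

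In PANC-1 minus MDA-MB-468 TAPBP had a positive difference, whose calls were lost with the offset for transcript length and GC content (0.38 and 0.31 with hairpins 1 and 2). With hairpin 1 the differences were 0.72 for TAPBP and -0.33 for ERAP2, and with hairpin 2 they were -0.47 for TAP1, -0.40 for TAP2 and 0.47 for TAPBP. The ERAP2 difference was called in 5 of 18 alternatives. In WiDr, the mean effect of the guides minus the mean effect of the hairpins was positive for each of the 9, with 1.27 for TAP1, 0.89 for TAP2, 0.43 for TAPBP, 1.36 for TAPBPL, 0.96 for ERAP1, 0.35 for ERAP2, 1.09 for PSMB8, 1.96 for PSMB9 and 0.86 for PSMB10. These guide values rest on the groups as the titles give them. The libraries on which single calls rested are named with the report of these differences.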

How the results depend on the processing

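Both WiDr hairpins kept 9 of 9 genes lower, and hairpin 2 against hairpin 1 kept 6 called, without any single library and under DESeq2 size factors, the DESeq2 Wald test, no filter on low counts, all 36 libraries in 1 fit and without ribosomal RNA genes; an offset for transcript length and GC content, added after seeing the data, gave 9, 9 and 7. Leaving out single libraries gave 1 to 5 genes for PANC-1 hairpin 1, 2 to 8 for the libraries labelled hairpin 2, 7 to 9, 6 to 7 and 8 to 9 for guide 1, guide 2 and guide 2 against guide 1, 0 for each MDA-MB-468 comparison and 1 to 3 for the guide against the hairpin controls. The effects of PANC-1 minus MDA-MB-468 then differed for 1 to 4 genes with hairpin 1 and 3 to 6 with hairpin 2. In MDA-MB-468 hairpin 1 gave 1 called gene, ERAP2, with DESeq2 or all 36 libraries in 1 fit, and 1, ERAP1, with the length and GC offset, and hairpin 2 gave 2 with all libraries in 1 fit (ERAP2, TAP2) and 2 with the offset (ERAP1, TAP1). PANC-1 hairpin 1 gave 1 without the filter, where 4051 of 23445 genes were called, and 5 with the offset, where 6824 of 15128 were. The libraries labelled hairpin 2 gave 2 without the filter, 6 with all libraries in 1 fit and 5 with the offset. Over all genes these settings called 4353 of 23445, 7054 of 17170 and 7219 of 15128. The effect of hairpin 1 in PANC-1 minus MDA-MB-468 gave 1 called gene in place of 2 under DESeq2 size factors, without the filter, without ribosomal RNA genes and with the libraries of these 2 experiments alone. With the length and GC offset it gave 3, and hairpin 2 gave 4, all of them lower in PANC-1, where 5530 and 6220 of 17170 genes were called. The cause of these changes was not tested.

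Grouping by the genotype field turned the sign of 21 values that were called with the titles. It left a single library under guide 2, so its own calls are not given. Guide 1 then gave -0.13 for ERAP2, -0.25 for PSMB8, -0.19 for PSMB9, -0.27 for TAP1, -0.25 for TAP2 and -0.073 for TAPBP. Guide 2 gave 0.17 for ERAP2, 0.30 for PSMB8, 0.87 for PSMB9, 0.41 for TAP1, 0.25 for TAP2 and 0.21 for TAPBP. Guide 2 against guide 1 gave 0.36 for ERAP1, 0.30 for ERAP2, 0.58 for PSMB10, 0.55 for PSMB8, 1.06 for PSMB9, 0.67 for TAP1, 0.50 for TAP2, 0.29 for TAPBP and 0.20 for TAPBPL. The length and GC offset turned TAPBP in PANC-1 over MDA-MB-468 controls to -0.028. Of 3375 values recomputed for single genes, 3143 kept their direction and side of the threshold, and 59 that were not called before or after changed sign.

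Correlations of deviations from the group means overlapped between same-numbered and different-numbered libraries in each experiment. Same-numbered libraries had -0.22 to 0.64 in MDA-MB-468, -0.67 to 0.13 in PANC-1, -0.15 to 0.07 in the WiDr hairpin and -0.05 to 0.13 in the guide experiment. Different-numbered libraries had -0.62 to 0.55, -0.34 to 0.50, -0.11 to 0.14 and -0.13 to 0.07, in the same order. With a block on the number, more of all genes were called for guide 1 (6699 in place of 6100), guide 2 (4548, 3731) and between them (5753, 5040). In the other experiments fewer were, and whether the numbers mark a pairing was not tested. A block on the number gave 1 called gene in PANC-1 for hairpin 1 and 2 for the libraries labelled hairpin 2, 1 between the WiDr controls, 6 between WiDr and PANC-1 controls, 9, 9 and 6 for the WiDr hairpins, 9, 6 and 9 for the guides and 0 in MDA-MB-468. With hairpin 2 it gave 8 between the WiDr and MDA-MB-468 effects, without PSMB10 (adjusted p = 0.0652), and 7 between those of WiDr and PANC-1, without ERAP1 (adjusted p = 0.0603).

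Over all genes, those called in MDA-MB-468 with hairpin 1 numbered 332, but 85 to 331 without single libraries, 726 with DESeq2, 900 with all libraries in 1 fit and 980 with the offset. With hairpin 2 they numbered 511, but 1268 with all libraries in 1 fit and 1584 with the offset. In PANC-1 they numbered 4566 for hairpin 1 (2851 to 6797 without single libraries) and 5053 for the libraries labelled hairpin 2 (3116 to 7958). With guide 2, 3731 were called, against 1261 with all libraries in 1 fit. Depth limits PSMB9 in WiDr, which had 20 to 53 expected counts with the hairpins.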
